A study of Mus musculus with 8 samples.

Results

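The olfactory mucosa of healthy juvenile mice was described here from the 4 control arrays of a study that measured 8 mice. All 21789 transcript clusters that name a single gene were taken as members, out of 35557 clusters in the deposited table, and they stand for 19938 genes. Each array (Affymetrix Mouse Gene 1.0 ST) held RNA of the olfactory mucosa of 1 mouse at postnatal day 26 on a mixed 129 x C57BL/6J background. Control 1 was Lhx2(fl/+) without Cre, and controls 2, 3 and 4 were OmpCre:Lhx2(fl/+). All 4 controls therefore carried a floxed allele of Lhx2, the LIM homeodomain factor that the study deletes. In the 3 mice with OmpCre, 1 Lhx2 allele could recombine in mature olfactory sensory neurons (OSNs), and the Cre sat in the Omp locus, where it disrupts that Omp allele. Only 1 control lacked Cre, so whatever was particular to control 1 cannot be told apart from its genotype. The study's 4 knockout arrays were not used.

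The olfactory mucosa is a layered tissue of an epithelium and the connective tissue under it. OSNs fill most of the epithelium, and each is thought to express a single odorant receptor (OR) gene from a very large family, so that every OR mRNA comes from a small part of the cells. Odorants bound by ORs activate the G protein Golf, adenylyl cyclase 3 and a cyclic nucleotide-gated channel in the OSN cilia. Sustentacular cells stand between the OSNs and detoxify inhaled chemicals, Bowman glands secrete mucus with odorant-binding proteins, and basal cells replace OSNs throughout life.

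Signals are given as log2 values. A cluster's signal depends on its probes as well as on its mRNA, so the order of genes below is an order of signals and not of mRNA abundance. Comparisons of the same gene between mice use the same probes. On a mixed background, strain alleles under the probes may still differ between mice, which was not tested. In this bulk tissue, fewer cells of a type and less RNA per cell cannot be told apart.

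Windows at the RefSeq start of 3 genes for subunits of the cyclic nucleotide-gated channel are shown. Each holds a short motif that was common in such windows of mature OSN genes. The match begins at -66 from the start in Cnga2 and -129 in Cngb1, but at 25 after the start in Cnga4. Whether OSNs use these starts was not tested. Each window runs from 250 bases before to 50 bases after the RefSeq gene start (assembly GRCm38.p6), written 5′ to 3′ on the gene's strand, with CCCNNGGG, a core bound by O/E (Ebf) factors, and the homeodomain core TAATTA in capitals where present. Stoml3, a cilia protein of OSNs, and Cbr2, a carbonyl reductase of sustentacular cells, are shown as bright genes whose window holds neither.
Cnga2, chrX:71991599-71991898, plus strand: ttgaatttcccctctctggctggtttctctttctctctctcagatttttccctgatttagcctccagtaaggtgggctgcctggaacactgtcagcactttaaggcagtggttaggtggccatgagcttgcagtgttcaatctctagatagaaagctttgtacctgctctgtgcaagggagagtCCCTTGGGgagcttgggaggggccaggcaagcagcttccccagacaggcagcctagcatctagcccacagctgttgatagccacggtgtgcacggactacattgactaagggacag
Cnga4, chr7:105404318-105404617, plus strand: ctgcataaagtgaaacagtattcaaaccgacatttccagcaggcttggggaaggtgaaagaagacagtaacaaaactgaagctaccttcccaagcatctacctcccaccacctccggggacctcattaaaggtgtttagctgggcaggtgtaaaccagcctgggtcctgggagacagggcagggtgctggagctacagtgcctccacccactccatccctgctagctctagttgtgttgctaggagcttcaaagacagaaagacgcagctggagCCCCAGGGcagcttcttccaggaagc
Cngb1, chr8:95306536-95306835, minus strand: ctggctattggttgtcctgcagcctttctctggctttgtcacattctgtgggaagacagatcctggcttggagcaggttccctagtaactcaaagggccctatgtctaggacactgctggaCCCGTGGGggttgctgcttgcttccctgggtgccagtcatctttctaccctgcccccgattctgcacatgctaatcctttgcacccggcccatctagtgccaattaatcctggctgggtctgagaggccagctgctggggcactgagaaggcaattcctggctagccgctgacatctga
Stoml3, chr3:53488457-53488756, plus strand: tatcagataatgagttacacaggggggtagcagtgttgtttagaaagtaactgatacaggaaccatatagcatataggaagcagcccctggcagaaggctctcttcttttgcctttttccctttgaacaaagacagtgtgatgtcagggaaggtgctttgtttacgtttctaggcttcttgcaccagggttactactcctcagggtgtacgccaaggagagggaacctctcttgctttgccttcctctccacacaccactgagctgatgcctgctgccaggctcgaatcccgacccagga
Cbr2, chr11:120731972-120732271, minus strand: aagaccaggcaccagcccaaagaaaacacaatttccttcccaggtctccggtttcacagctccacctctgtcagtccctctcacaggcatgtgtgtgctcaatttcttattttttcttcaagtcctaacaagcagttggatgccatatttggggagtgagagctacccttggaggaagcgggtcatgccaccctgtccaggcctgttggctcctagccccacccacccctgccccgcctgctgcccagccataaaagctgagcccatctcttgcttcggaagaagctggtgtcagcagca

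CCCNNGGG was found in the windows of 11 of 18 mature OSN genes that had a promoter in the table (61.1%), and of 9 of 17 genes of the odor transduction cascade (52.9%). The same letters were present for 4159 of all 27025 genes with a promoter (15.4%), for 7 of 18 sustentacular genes (38.9%), for none of 11 genes of fibroblasts and matrix, and for 26 of 864 ORs (3.01%). TAATTA was found for 160 of 864 ORs (18.5%), against 1655 of all 27025 genes (6.12%) and 1 of 18 mature OSN genes (5.56%). Among ORs it was present for 35 of 206 in the brightest quartile by signal (17.0%) and for 44 of 215 in the dimmest quartile (20.5%). Both motifs read the same on either strand and were searched in all windows of a gene. A match is only a match of letters in this window, and the mature OSN and cascade lists share genes.

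The tissue label was checked against markers of its main cell types, and all 9 were present. Omp, the olfactory marker protein of mature OSNs, was at 13.78, 13.56, 13.22 and 13.27 in controls 1 to 4. It was highest in the control without Cre (13.78), the mouse in which both Omp alleles are intact. Among the mice with Cre, the highest value (13.56) lay closer to 13.78 than to the others (13.27 and 13.22). Whether the Omp alleles had a part in these values was not tested. Cnga2, the main subunit of the transduction channel, was at 13.11, 13.13, 13.12 and 13.11, and Stoml3 at 14.05, 14.04, 14.02 and 13.98. These OSN genes differed from mouse to mouse by at most 0.57, and Cnga2 by 0.02. Cyp2g1, the olfactory cytochrome P450 of sustentacular cells and Bowman glands, lay at 14.06 ± 0.03 (SD, n = 4) and Cbr2 at 13.86 ± 0.08. Gap43, a growth cone protein of immature OSNs, lay at 11.06 ± 0.04. The progenitor and sustentacular factor Sox2 was at 10.81 ± 0.10, the macrophage lysozyme Lyz2 at 10.93 ± 0.23, and Foxj1, the factor for motile cilia, at 9.63 ± 0.10. Of all genes, 92.0% lay at or below Gap43 and 70.9% at or below Foxj1. Lhx2 was at 12.39, 12.33, 12.29 and 12.33, which ranked 274th of 19938 genes, with no mouse standing apart.

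The 4 arrays were close to each other. Pearson's r between pairs of arrays over the 21789 clusters was 0.992 to 0.997, and 32 to 82 clusters differed by at least 2-fold between a pair. Controls 1 and 2, which have mouse numbers with the same first digit in their titles, were the closest pair. The median cluster had a range of 0.27 between its highest and lowest mouse. In the dimmest quartile of clusters control 4 lay 0.13 above the mean of the 4 mice (median), while the other 3 controls lay 0.03 to 0.06 below it. Values of dim families below are read against that shift.

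The brightest signals came from genes of olfactory secretions, support cells, OSNs and general cell functions. Among the 30 brightest genes were the secretoglobin Scgb1c1 (14.09 ± 0.02), the mucus protein Bpifa1 (13.97 ± 0.05), the odorant-binding proteins Obp2a (13.89 ± 0.18) and Obp2b (13.63 ± 0.24), and the lipocalin Lcn11 (13.66 ± 0.56). Gpx6, a glutathione peroxidase known from the olfactory mucosa, was at 13.94 ± 0.08. Cyp2f2, a cytochrome P450 of the airways, was at 13.84 ± 0.02. Gnb1, a G protein beta subunit, was at 14.06 ± 0.01, and with Stoml3 and Omp it was a gene of the OSN lists among the 30. Others were housekeeping or structural genes, such as actin (Actb, 14.00), the elongation factor Eef1a1 (13.98), tubulin Tuba1a (13.78), the matrix protein Sparc (13.73) and collagen Col1a1 (13.52). In Rn7sk (14.35), Rny3 (14.13) and Rpph1 (13.50) the gene is a small non-coding RNA.

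Some of the brightest names are uncertain. The cluster named Baiap2l1 was the brightest of all (14.37), but the clusters numbered next to it belong to genes on chromosome 17 and not to chromosome 5, where RefSeq places Baiap2l1. The same mismatch was found for 5 of the 30 and 21 of the 100 brightest genes, among them Rn7sk, Rps6, Hspa8 and Tpt1, against 622 of all 21789 clusters. Ribosomal protein genes such as Rps6 are known to have many processed copies, and which copy the probes read was not tested.

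Of the 100 brightest genes, 9 belonged to the 6 neuronal lists together (102 genes measured) and 19 to the gland, sustentacular and xenobiotic lists together (88 genes measured). The gland list alone gave 12 of its 26 measured genes, the mature OSN list 7 of 23, the fibroblast and matrix list 5 of 15, and the sustentacular list 5 of 20. No OR was among them. The brightest OR ranked 900th of 19938 genes.

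**Figure D1:**
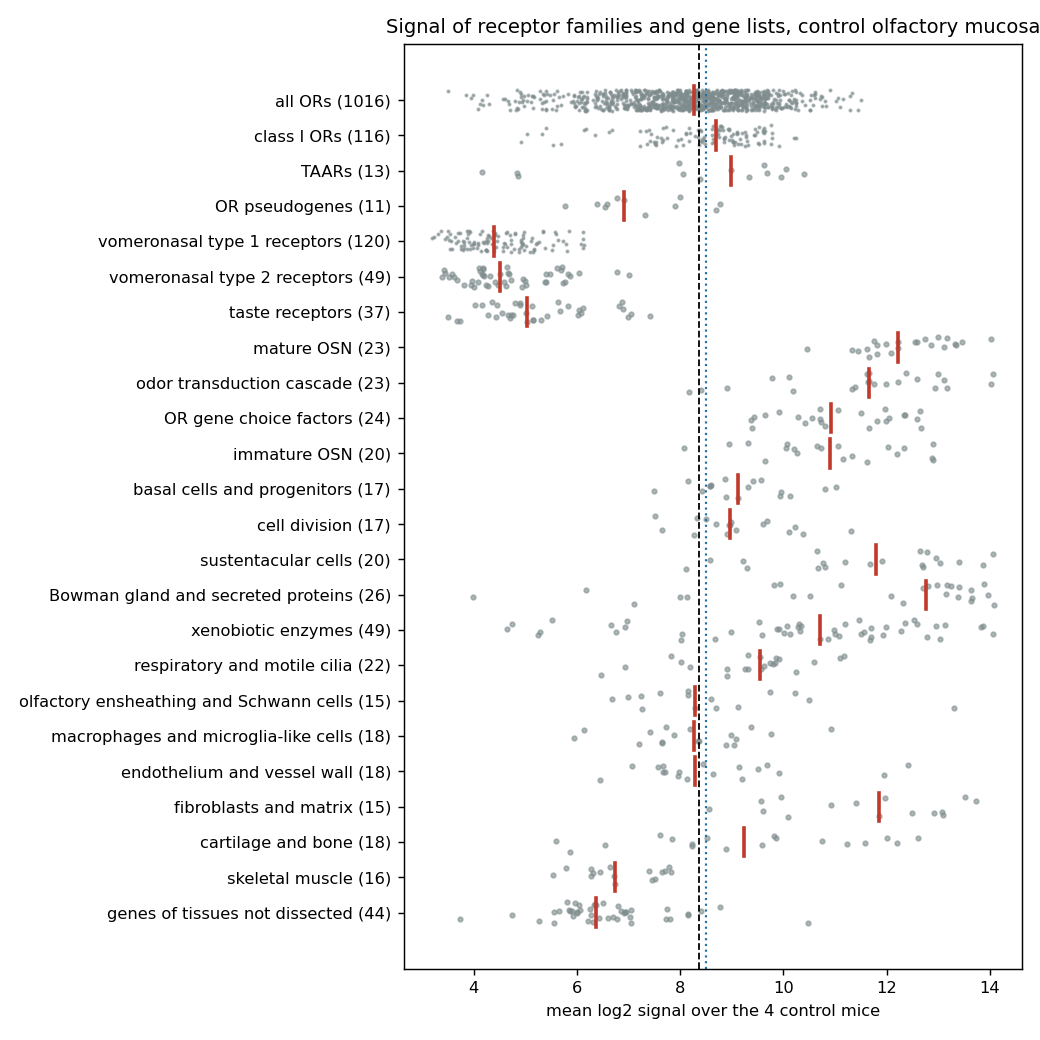
Each grey point is a gene, placed on the x axis by its mean log2 signal over the 4 control mice, and each row is a receptor family or a gene list with its number of genes. Red bars mark medians, the dotted line marks the median of all genes (8.51) and the dashed line the off-tissue level (8.36). Mature OSN genes, with a median of 12.22, all lie to the right of both lines, ORs spread over both sides, and vomeronasal receptors lie far to the left.

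To give dim signals a reference, a list of 44 measured genes of tissues that were not dissected (liver, pancreas, kidney, heart, testis and others) was used. Their median was 6.36, and the 95th percentile of their means, 8.36, is called the off-tissue level here. Of all 19938 genes, 52.5% lay above it. This level rests on few genes: 3 listed genes lay above it, namely Gh, Nphs1 and Prl. Of these, Gh and Prl are pituitary hormones that were highest in control 1, and Gh lay above the level in all 4 mice. Without the pituitary hormone genes the level was 7.74, and without control 1 it was 7.81.

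Genes of mature OSNs were bright and even between mice. All 23 measured genes of the mature OSN list lay above the off-tissue level, from 10.46 (Reep1, which helps to bring receptors to the surface) to 14.02 (Stoml3), and their mean was 12.37, 12.39, 12.35 and 12.38 in controls 1 to 4. S100a5, a calcium-binding protein of OSNs, was at 13.35 ± 0.16 and creatine kinase Ckb at 13.32 ± 0.08. Omp had the widest range of the list, 0.57. The median range of the list's clusters was 0.195, against 0.192 for clusters outside the receptor families in the brightest quartile of signals.

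In the odor transduction cascade, 22 of 23 genes lay above the off-tissue level, with a median of 11.67. The alpha subunit of Golf (Gnal) was at 13.18 ± 0.02 and its gamma subunit Gng13 at 11.65 ± 0.25. Adenylyl cyclase 3 (Adcy3) was at 12.59 ± 0.17, the channel subunits Cnga4 and Cngb1 at 11.99 ± 0.06 and 11.62 ± 0.14, and the calcium-activated chloride channel Ano2 at 12.22 ± 0.05. Atp2b2, a calcium pump, was the dimmest member at 8.18. Gng13 was at 11.37 and 11.52 in controls 1 and 2 and at 11.86 in both controls 3 and 4, so these pairs did not overlap. The same was found for 49.5% of all clusters.

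Chaperones and export factors of ORs were bright as well. All 14 measured genes of that list lay above the off-tissue level, led by Ric8b (12.99 ± 0.05), which stabilises Golf, the chaperone calnexin (Canx, 12.71 ± 0.03), the receptor transporter Rtp1 (12.56 ± 0.10) and the chaperone Hspa5 (12.47 ± 0.08). Ddit3, a factor of the unfolded protein response, was the dimmest and the most variable between mice, with 9.42 in control 3 against 8.75 to 8.95 in the others.

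Factors with known roles in OR gene choice were measured for 24 genes, all above the off-tissue level. The brightest were Ebf1 (12.67 ± 0.02), Ebf2 (12.65 ± 0.02) and Ebf3 (12.59 ± 0.04), the O/E factors whose core motif is marked in the promoters above, followed by Ldb1 (12.35 ± 0.05), the partner of Lhx2. Ehmt1, a histone H3 lysine methyltransferase, was the dimmest at 9.38. The nuclear factor Nfix varied most, at 11.98, 12.07, 11.54 and 11.65 in controls 1 to 4.

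Immature OSN genes reached a median of 10.89, with 19 of 20 above the off-tissue level. The adhesion molecule Ncam1 (12.91 ± 0.03) and the tubulin-binding stathmins Stmn1 (12.90 ± 0.08) and Stmn2 (12.87 ± 0.04) led the list, and Nhlh2, a helix-loop-helix factor of newly made neurons, was the dimmest (8.08). Presynaptic genes had a median of 10.16. Syt1, Snap25 and Slc17a6, the glutamate transporter of OSN terminals, were at 12.41, 12.25 and 11.80, while Slc17a7, the related transporter of cortical neurons, was at 7.11.

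ORs formed a broad distribution around the median of all genes. The 1016 OR genes measured ranged from 3.49 to 11.51 with a median of 8.27, and 546 of them lay between 8 and 10. Signals of 10 or more were found for 55 ORs and signals under 6 for 67. Above the off-tissue level lay 478 ORs, or 47.0%, a share below the 52.5% of all genes at this level. The count moved from 396 to 656 as single mice were left out, the highest value being that without control 1, and it was 675 without the pituitary hormone genes in the reference list. In that last setting the level was 7.74, and 37.6% of all genes lay at or below Mir182 at 7.74. ORs then lay above the level more often than all genes, so the order of these shares depends on the level. Related ORs can share probes, which adds uncertainty to single receptors, and 6 of the 1016 are pseudogenes in RefSeq although their symbols do not say so.

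The brightest ORs were Olfr727 (11.69, 11.87, 11.45 and 11.02 in controls 1 to 4), Olfr309 (11.57, 11.12, 11.51 and 11.61) and Olfr745 (11.34, 11.37, 11.11 and 11.47). Olfr727 was lowest in control 4, Olfr309 in control 2 and Olfr745 in control 3, so no mouse was lowest throughout. They were followed by Olfr220 (11.29), Olfr449 (11.29), Olfr1176 (11.15), Olfr15 (11.09), Olfr1264 (11.07), Olfr168 (11.02), Olfr420 (10.90), Olfr1347 (10.82) and Olfr239 (10.80). These 12 genes lie on 7 chromosomes. The dimmest were Olfr1475 (3.98), Olfr1248 (3.95), Olfr926 (3.84) and Olfr1061 (3.49), each below the median of the off-tissue list in all 4 mice. Among the 13 chromosomes with at least 10 measured ORs, the median OR signal ran from 7.86 on chromosome 19 (59 ORs) to 9.02 on chromosome 13 (11 ORs).

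Class I ORs resemble the ORs of fish. They lie in a single cluster on mouse chromosome 7 and are expressed mainly in the dorsal zone. Here the class was taken as the OR genes from Olfr543 to Olfr692 in RefSeq order, 116 of which were measured. Their median was 8.70, against 8.19 for the 900 class II ORs, and 74 of 116 lay above the off-tissue level, against 404 of 900. The level of class I ORs depended on the mouse. Their mean was 8.41, 8.49, 8.17 and 8.61 in controls 1 to 4, lowest in control 3 and highest in control 4. Of the 116 genes, 88 (75.9%) had their lowest value in control 3 and none its highest, whereas 31.1% of class II ORs and 31.8% of all genes were lowest in control 3. The median class I OR lay 0.26 below the mean of the 4 mice in control 3, and 0.19 above it in control 4. For class II ORs these deviations were -0.02 and 0.07.

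**Figure D2:**
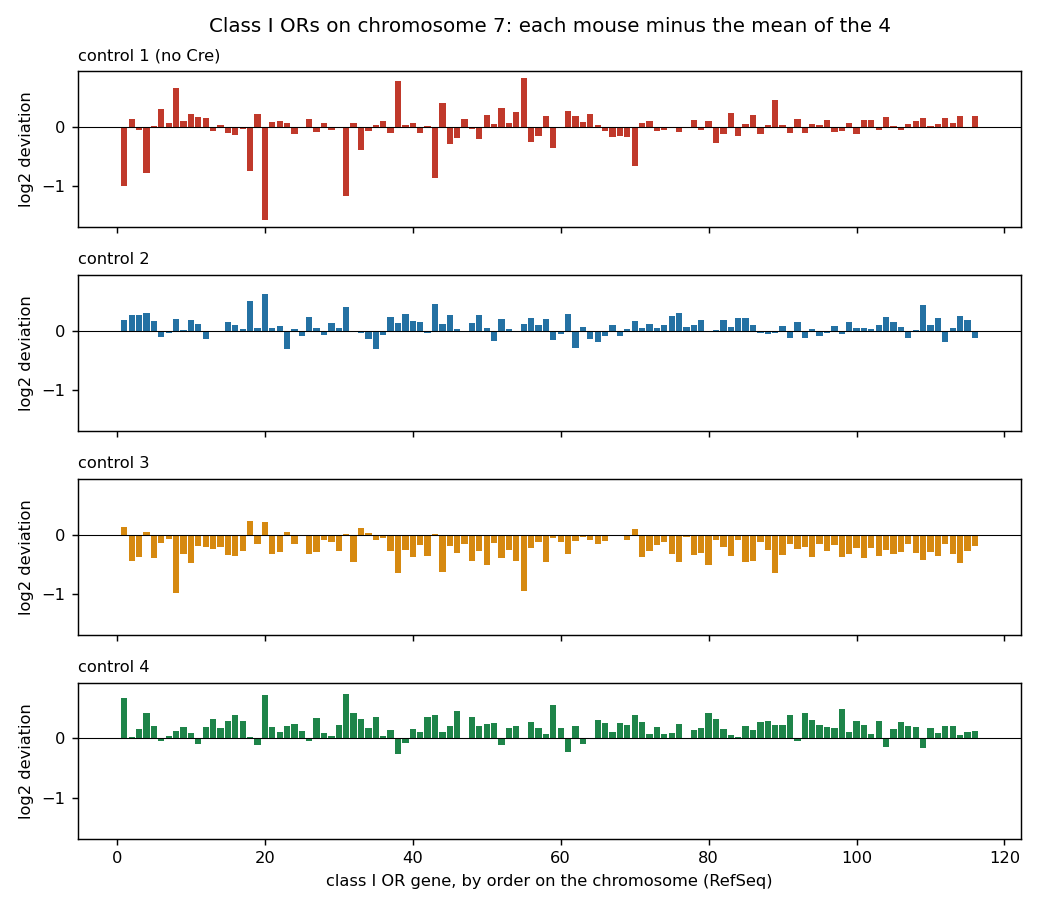
Bars give the log2 signal of each class I OR in 1 control mouse minus the mean of the 4 mice, with the 116 genes along the x axis in their order on chromosome 7 and 1 panel for each mouse. Most bars in control 3 point down and most in control 4 point up, while control 1 has a few deep bars among many short ones, the deepest being that of Olfr568.

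Other genes tied to the dorsal zone were read in the same mice. Nqo1, an oxidoreductase of the dorsal zone, was at 12.32 to 12.40 in controls 1, 2 and 4 and lower in control 3, with an SD of 0.18 over the 4 mice, and Acsm4, a dorsal acyl-CoA synthetase, at 13.38, 13.45, 13.21 and 13.35. Both were lowest in control 3. Ncam2, an adhesion molecule of the ventral zone, was at 11.12, 10.69, 11.17 and 11.16, lowest in control 2. Of the 18 measured genes of the zone list, which holds markers of both zones, 10 were lowest in control 3. Over all genes this share was 31.8%. The part of zone makeup in the class I values was not tested.

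Trace amine-associated receptors (TAARs) are a small receptor family, most of which is used by OSNs of the dorsal zone. Of 13 measured TAAR genes, 8 lay above the off-tissue level, 6 of them in a run from Taar6 (9.33 ± 0.19) through Taar7e (9.62 ± 0.09), Taar7d (9.67 ± 0.11), Taar3 (9.96 ± 0.16) and Taar7b (10.05 ± 0.16) to Taar4 (10.41 ± 0.16). Taar9 was at 9.14, 9.44, 8.40 and 8.94 in controls 1 to 4, lowest in control 3, and was the only TAAR with a range of 2-fold or more. Taar7f (8.37 ± 0.07) lay at the off-tissue level, and Taar2 (8.05 ± 0.38) and Taar5 (7.98 ± 0.14) lay below it. Taar8b (4.86 ± 0.31), Taar8c (4.15 ± 0.31) and Taar1 (4.84 ± 0.16), the TAAR that is not used for smell, lay far below. The order is one of signals from different probes. Lowest in control 3 were 7 of the 13 TAARs, against 31.8% of all genes.

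Other chemosensory receptor families were dim. None of 120 vomeronasal type 1 and none of 49 type 2 receptor genes lay above the off-tissue level, and their medians were 4.39 and 4.51. The brightest were Vmn2r26 (7.01 ± 0.10), Vmn2r54 (6.78 ± 0.25), Vmn1r193 (6.14 ± 0.31), Vmn1r208 (6.12 ± 0.26) and Vmn1r233 (6.11 ± 0.10). Taste receptors (37 genes, median 5.02), formyl peptide receptors (4 genes, median 4.28) and the Ms4a family (19 genes, median 6.17), receptors of the necklace system among others, also had no gene above that level. Most vomeronasal receptors (71 of 120 type 1 and 34 of 49 type 2) were highest in control 4, against 6131 of all 19938 genes. Control 4 was the mouse in which dim clusters as a whole were raised. OR pseudogenes with such a symbol (11 genes) had a median of 6.91.

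Support cells and glands gave bright signals with unequal spread. Sustentacular genes had a median of 11.79, with 19 of 20 above the off-tissue level, led by Cyp2g1, Cbr2, the lipid-binding protein Sec14l3 (13.40 ± 0.06) and the sulfotransferase Sult1d1 (13.04 ± 0.08). None of the 20 had a range of 2-fold. Xenobiotic enzymes had a median of 10.72 over 49 genes, from Cyp2g1 to the liver enzyme Cyp2c29 (4.64). Fmo5, a monooxygenase, varied most of these, at 11.80 and 11.81 in controls 1 and 2 against 10.95 and 11.26 in controls 3 and 4.

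Gland genes were among the brightest and the most variable. The median of 26 measured genes was 12.76, and 21 lay above the off-tissue level. Scgb1c1 had a range of 0.05 and Bpifa1 of 0.11, but 9 of 26 clusters of this list had a range of at least 2-fold, against 0.757% of all clusters. Scgb1a1, the secretoglobin of lung club cells, was at 3.99, near the floor of the table.

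Basal cell and progenitor genes had a median of 9.11, with 15 of 17 above the off-tissue level. Ezh2, a histone methyltransferase of dividing progenitors, was at 11.02 ± 0.02, and Neurod1, a factor of neuronal precursors, at 10.12 ± 0.06. The horizontal basal cell keratin Krt5 was at 9.99, 10.25, 9.66 and 9.88, lowest in control 3. Genes of cell division had a median of 8.97, with 11 of 17 highest in control 2 and 13 lowest in control 4, against 6454 and 5047 of all 19938 genes. Pcna was at 11.31 ± 0.09 and Mki67 at 10.41 in control 3, above the other mice, which reached at most 10.05. Motile cilia genes of the respiratory epithelium had a median of 9.55, led by Tppp3 (11.17 ± 0.17). Genes of microvillar and tuft-like cells had a median of 8.43, against 8.51 for all genes. Above the off-tissue level lay 10 of 18 (55.6%), close to the 52.5% of all genes. They ran from Gnat3 (4.48) to Coch (11.66).

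Genes of cells below the epithelium were measured as well. Fibroblast and matrix genes had a median of 11.84, with all 15 above the off-tissue level and with Sparc, Col1a1 (13.52 ± 0.13), Col1a2 (13.08 ± 0.12) and Vim (13.06 ± 0.05) in the lead. Bone genes were bright, among them bone sialoprotein Ibsp (12.61 ± 0.18), the collagenase Mmp13 (12.21 ± 0.16) and the osteoclast enzymes Acp5 (12.01 ± 0.12) and Ctsk (11.57 ± 0.18), while the cartilage matrix gene Matn1 was at 5.60. Fabp7, a lipid carrier of olfactory ensheathing cells, was at 13.31 ± 0.13. The list of ensheathing and Schwann cells as a whole had a median of 8.29, with 7 of 15 genes above the off-tissue level. Macrophage genes had a median of 8.27, with 8 of 18 above that level, and endothelial genes of 8.29, with 9 of 18. Over all genes the share above it was 52.5%. Skeletal muscle genes had none of 16 above the off-tissue level, and the brightest, Acta1, was at 7.81. Tooth and skin genes had none of 15.

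Differences between control mice were then taken gene by gene. A range of at least 1 on the log2 scale (2-fold) between the highest and lowest of 4 mice was found for 165 of 21789 clusters, which is 0.757%. Of the 165 clusters, 37 were ORs, 9 were miRNAs, 11 were long non-coding RNAs and 25 belonged to any of the fixed lists. These counts can overlap. The groups that could be named are given below. The gaps between mice are given as measured, since 1 array per mouse does not separate a mouse from its dissection, RNA or array.

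**Figure D3:**
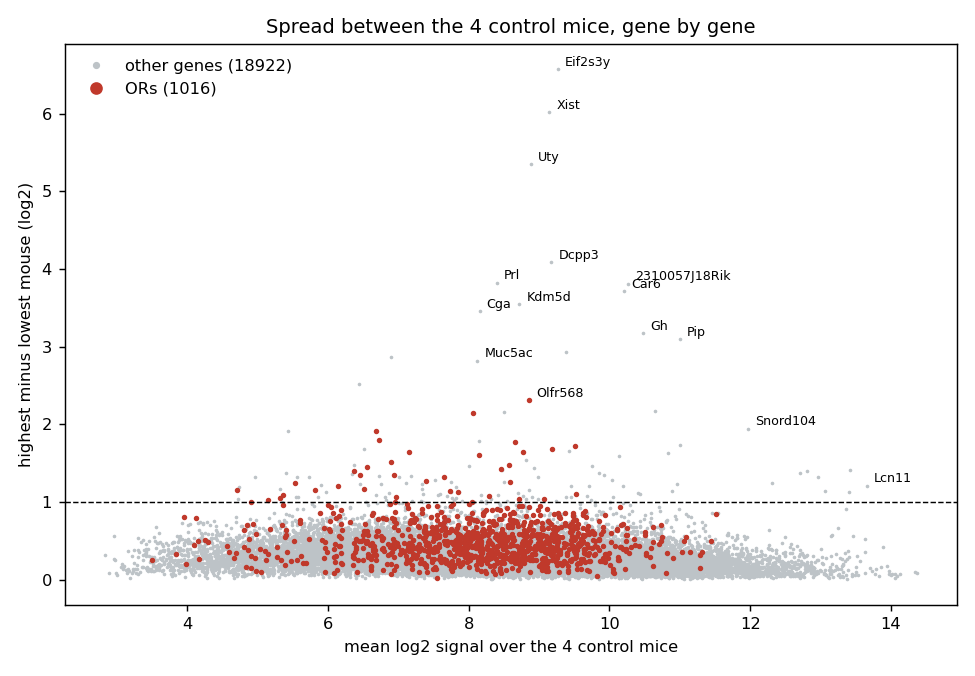
Each point is a gene, with its mean log2 signal over the 4 control mice on the x axis and the difference between the highest and lowest mouse on the y axis. The dashed line marks a range of 1. ORs (red) reach above the line more often than other genes (grey), while the sex-linked genes Eif2s3y, Xist and Uty lie highest, followed by Dcpp3 and Prl.

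The 3 widest ranges were those of the sex-linked genes Eif2s3y, Xist and Uty. The Y-linked genes Eif2s3y, Uty and Kdm5d were at 10.61, 10.16 and 9.43 in control 1 and remained high in controls 2 and 3, but were at 4.70, 5.01 and 6.28 in control 4. Xist, the RNA of the inactive X chromosome, was at 6.64, 8.15 and 9.12 in controls 1 to 3 and at 12.65 in control 4. Control 4 was opposite to the other 3 in all 4 genes, and Xist also differed among those 3. The study used both sexes, and the sex of each mouse is not in the labels. Only control 4 had low Y-linked signals together with high Xist. Other traits of control 4 cannot be told apart from this difference.

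Pituitary hormone genes were high in control 1. Growth hormone (Gh) was at 12.66, 9.76, 10.01 and 9.49 in controls 1 to 4, prolactin (Prl) at 10.87, 7.57, 7.04 and 8.10, and Cga, the alpha subunit shared by glycoprotein hormones, at 10.42, 7.65, 7.58 and 6.97. In all 3 genes control 1 lay above every other mouse by more than 2. Pomc, the precursor of corticotropin, was at 9.14 in control 1 and 7.35 to 8.25 in the others, and Fshb at 7.67 against 6.55 to 6.64. Lhb (8.73 against 8.07 to 8.52) and Tshb (5.41 against 5.16 to 5.28) were also highest in control 1 but with narrow ranges. Over the 7 genes, a list written after the values of Gh and Prl were seen, the median of control 1 minus the mean of the other 3 was 1.32. Lhx3, a factor of pituitary development, was at 6.99, 6.85, 6.91 and 7.17, and the corticotroph factor Tbx19 at 6.37, 6.12, 6.17 and 6.48, neither highest in control 1. Both lay below the off-tissue level in every mouse and were chosen after their values were seen. The source of the hormone signals was not tested. Control 1 was also the control without Cre, and mouse and genotype cannot be told apart.

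**Figure D4:**
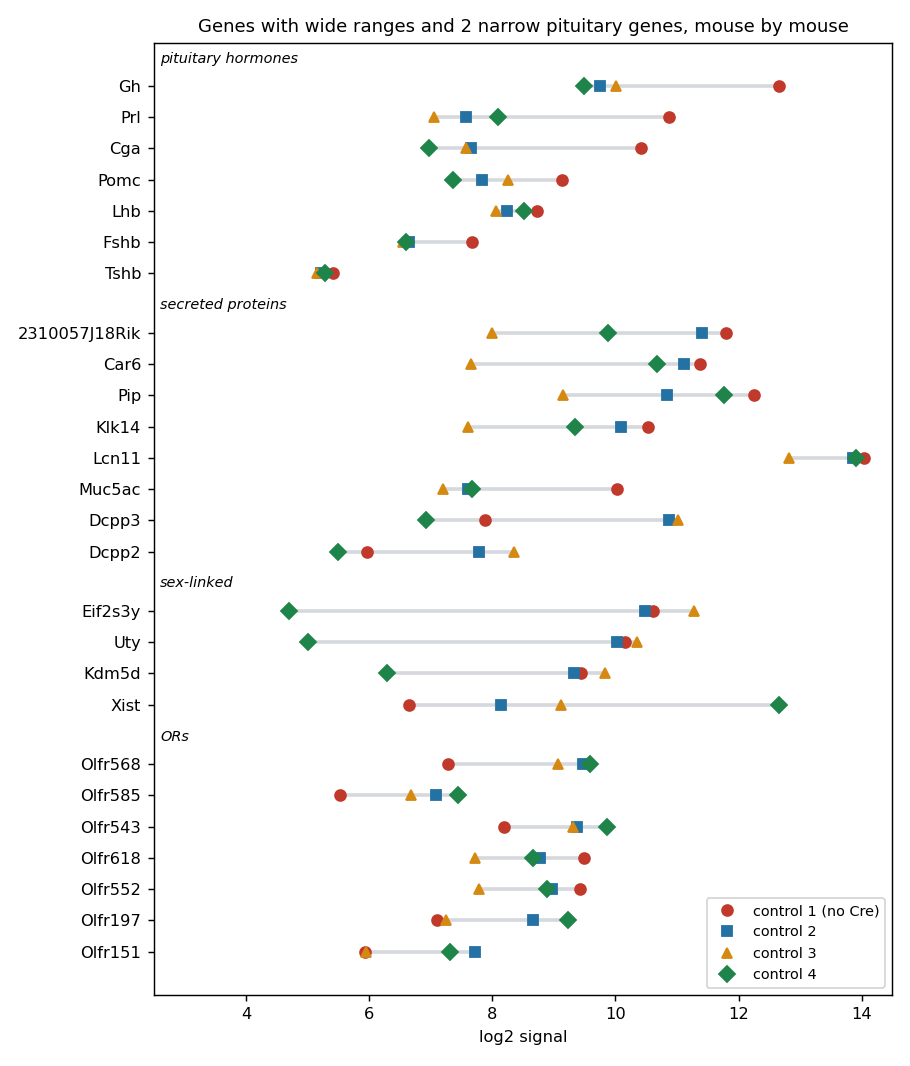
Symbols give the log2 signal of a gene in each of the 4 control mice, and grey lines join the lowest and highest mouse. Control 1 (red circles) is apart in Gh, Prl and Cga, control 3 (orange triangles) is lowest in Car6, Pip, Klk14 and Lcn11, and control 4 (green diamonds) is apart in the sex-linked genes.

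Several secreted proteins were low in control 3. The secreted carbonic anhydrase Car6 was at 11.37, 11.11, 7.66 and 10.68, the secreted prolactin-inducible protein Pip at 12.25, 10.84, 9.15 and 11.76, and the kallikrein Klk14 at 10.53, 10.08, 7.60 and 9.33. The gene 2310057J18Rik was at 11.80, 11.40, 7.99 and 9.87. Control 3 was below the next mouse by more than 1 in each. Of the 26 genes of the gland list, 16 were lowest in control 3, against 31.8% of all genes. Compared with the mean of the other 3 mice, the median difference of control 3 was -0.23. Of the 26, 18 were lower there, 6 of them by 1 or more, and the others reached 0.77 above that mean. Lcn11 was at 14.04, 13.86, 12.83 and 13.90, Lcn4 at 13.25, 12.91, 11.85 and 13.20, and the odorant-binding protein Obp1a at 13.73, 13.66, 12.60 and 13.60. The water channel of gland cells, Aqp5, was at 10.61 in control 3 and 11.09 to 11.43 in the others, and Sox9, a factor of Bowman glands, at 9.36 against 9.72 to 10.19. Bhlha15, a factor of secretory cells, was at 9.13, 8.78, 7.72 and 8.28.

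Not all secretions followed control 3. The mucin Muc5ac was at 10.02 in control 1 and 7.20 to 7.66 in the others. Dcpp3 and Dcpp2, secreted proteins of the salivary gland, were at 10.87 and 7.78 in control 2 and at 11.02 and 8.36 in control 3, but at 7.87 and 5.96 in control 1 and 6.93 and 5.50 in control 4. Bpifb5 had the same split, with 10.80 and 10.77 in controls 2 and 3 against 9.60 and 9.59, and so had Odam, a protein first known from tooth-forming cells, with 7.74 and 7.65 in controls 2 and 3 against 6.55 in control 1. The secretoglobin Scgb3a1 was highest in control 3, at 10.75 against 9.46 to 10.33.

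ORs varied between mice more often than other genes of like signal, except among the brightest. A range of 2-fold was found for 37 of 1024 OR clusters (3.61%), beside 0.757% of all clusters, and the median range of OR clusters was 0.45 against 0.27 over all. Within the dimmest quartile of signals, 8.56% of OR clusters and 0.697% of clusters outside the receptor families passed. The second quartile gave 2.64% and 0.758%, and the third gave 2.83% and 0.511%. In the brightest quartile none of 67 OR clusters passed, against 0.465% of the others, although their median range (0.42) was again above that of the others (0.19). The count of 37 fell to 20 without control 1 and to 23 without control 3. Each OR mRNA comes from few cells, and no part of these ranges was assigned to that, to probes or to strain alleles, none of which was tested.

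The widest OR ranges followed several patterns. Olfr568 was at 7.27, 9.47, 9.07 and 9.58, Olfr585 at 5.52, 7.09, 6.68 and 7.44, and Olfr543 at 8.18, 9.37, 9.31 and 9.86, each lowest in control 1. Olfr618 was at 9.48, 8.78, 7.71 and 8.66 and Olfr552 at 9.43, 8.97, 7.78 and 8.89, each highest in control 1 and lowest in control 3. All 5 are class I ORs on chromosome 7. Outside that cluster, Olfr197 was at 7.09, 8.66, 7.25 and 9.24, Olfr151 at 5.93, 7.72, 5.95 and 7.30, and Olfr138 at 6.62, 7.92, 6.27 and 7.80, low in controls 1 and 3 and high in controls 2 and 4. Olfr49 was at 9.37, 8.61, 10.33 and 9.75 and Olfr461 at 7.93, 7.24, 8.84 and 8.58, lowest in control 2.

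Class I ORs supplied 12 of the 37 variable OR clusters, out of 117 measured, against 25 of 907 class II clusters (2.76%). Of the 12 genes, 7 were lowest in control 1 and 5 in control 3. Only 2 clusters kept such a range without control 1, so the count rests on that mouse. By chromosome, 14 of 221 OR clusters varied on chromosome 7 (6.33%) and 8 of 125 on chromosome 9 (6.40%). Chromosome 10 gave 4 of 56 (7.14%) and chromosome 13 gave 2 of 12 (16.7%), but it was 2 of 276 on chromosome 2 (0.725%) and none of 70 on chromosome 11 or 59 on chromosome 19.

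Small RNAs were a further group. Of 299 miRNA clusters, 9 had a range of 2-fold (3.01%), and all 9 were highest in control 3. The array labels RNA for whole transcripts, so these clusters may read precursors as well as the mature miRNA. Mature sequences of 5 of the 9 are shown from RefSeq (GRCm38.p6) to identify them, 5′ to 3′ with the seed (bases 2 to 8) in capitals. They share no seed, although miR-99a and let-7c come from precursors that lie next to each other on chromosome 16.
mmu-miR-218-5p: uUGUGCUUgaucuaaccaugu
mmu-miR-350-3p: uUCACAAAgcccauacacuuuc
mmu-miR-181a-5p: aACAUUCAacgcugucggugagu
mmu-miR-99a-5p: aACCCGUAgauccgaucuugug
mmu-let-7c-5p: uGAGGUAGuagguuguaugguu

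Mir218-1 was at 8.53, 8.06, 9.60 and 9.08 in controls 1 to 4, Mir350 at 6.29, 5.70, 7.06 and 6.30, and Mir181a-1 at 5.58, 5.29, 6.36 and 5.04. Mir99a was at 7.20, 6.67, 7.90 and 7.59, and Mirlet7c-1 at 5.67, 5.51, 6.65 and 6.06. Each was highest in control 3. Of all 9 variable miRNA clusters, 6 were lowest in control 2 and 3 in control 4, the latter being Mir181a-1, Mir182 (8.57 in control 3 and 7.44 in control 4) and Mir186 (6.79, 6.78, 7.36 and 6.30). Over all miRNA clusters 33.4% were highest in control 3 and 53.2% in control 4, against 23.1% and 30.3% of all 21789 clusters. Long non-coding RNAs gave 26.9% and 55.1%. The miRNA clusters were dim (median 6.04), and dim clusters as a whole were raised in control 4, whose part in these shares was not tested. Small nucleolar RNAs went the other way in single clusters. Snord104 was at 12.86 and 12.90 in controls 1 and 2 and at 11.15 and 10.96 in controls 3 and 4, and Snora73b at 10.85 and 10.83 against 9.26 and 9.58. Only 3 of 58 snoRNA clusters had such a range (5.17%), and over all of them 55.2% were highest in control 3.

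A gap of controls 1 and 2 from controls 3 and 4 was common but seldom large. In 49.5% of all clusters, controls 1 and 2 lay both above or both below the other mice, and this share was 47.9% among the 165 variable clusters. This pairing is 1 of 3 ways to set 2 mice against 2, and each cluster falls in exactly 1 of them. The other 2 pairings together therefore held about as many clusters as this pairing, so its share was high. The cause was not tested. A gap of at least 1 between the pairs was found for only 5 clusters, namely 2310057J18Rik, Snord104, Snora73a, Snora73b and Uqcr11, all higher in controls 1 and 2. The mouse numbers in the titles start with 5 for controls 1 and 2, with 7 for control 3 and with 9 for control 4, and no source used here says whether they mark litters or processing days. By the study's methods, litters that gave knockout mice also gave controls, from more than 1 litter in an experiment.

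Lists of mature and immature OSN genes moved little between mice. The mean of mature OSN genes stayed within 0.04 and that of immature OSN genes within 0.06 over the 4 mice. The mean of all genes stayed within 0.04. Presynaptic genes moved by 0.08 and OR gene choice factors by 0.10, near the 0.12 of sustentacular and respiratory chain genes. Endothelial genes were highest in control 2 in 15 of 18 cases, with means of 8.75, 8.94, 8.64 and 8.57. Fibroblast and matrix genes (12 of 15 highest in control 2; 11.49, 11.67, 11.49 and 11.41), respiratory chain genes (15 of 19; 11.26, 11.37, 11.26 and 11.25), motile cilia genes (14 of 22) and macrophage genes (12 of 18) were also most often highest in control 2. Over all genes, 6454 of 19938 were highest there. Genes of red blood cells, of which 6 were measured, were highest in control 3 in 5 cases, against 4403 of all 19938 genes. Their means were 8.86, 9.12, 9.29 and 8.71, and Slc4a1, the anion exchanger of red cells, was at 9.33, 9.90, 10.28 and 9.20. Blood and vessel genes therefore did not peak in the same mouse.

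**Figure D5:**
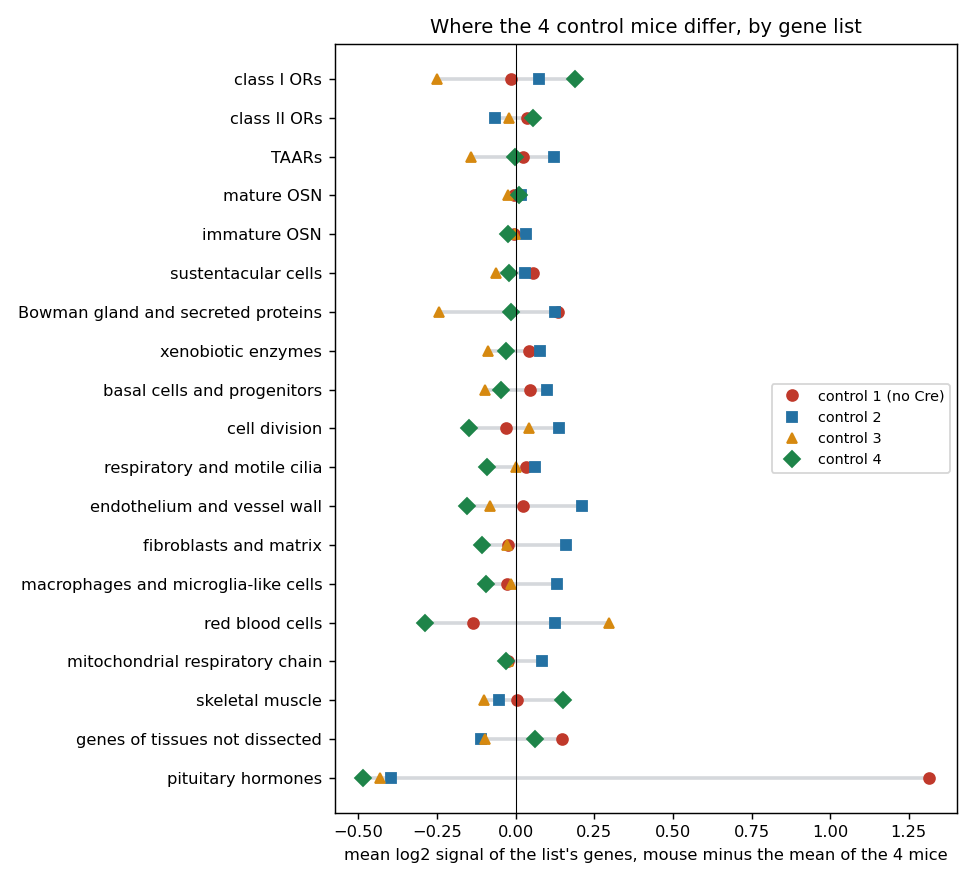
For each gene list or family the mean log2 signal of its genes is shown for each control mouse, minus the mean of the 4 mice, on the x axis. Mature and immature OSN lists lie close to 0, and class I ORs and gland genes reach their lowest values in control 3. Pituitary hormones lie farthest from 0 in control 1, where their mean was 9.27 against 7.47 to 7.56 in the others.

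Genes that respond to activity, time of day or interferon were compared last. Immediate early genes had a median of 7.78, with Dusp1 at 11.52 ± 0.17 and Fos at 7.56, 7.29, 6.93 and 7.76. Among clock genes, Per1 was at 9.68, 9.76, 9.01 and 9.32 and Dbp at 10.44, 10.57, 9.95 and 10.32, both lowest in control 3. Of 14 clock genes, 7 were lowest in control 3, against 31.8% of all genes. In control 4, 5 were lowest, against 5047 of all 19938 genes. Interferon-stimulated genes had a median of 7.82, and Rsad2, an antiviral enzyme, was at 7.95, 7.75, 8.88 and 7.42, highest in control 3. Each of these lists held at most 2 clusters with a 2-fold range.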

How the data were processed

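RNA of the olfactory mucosa of each mouse was hybridised to 1 Affymetrix Mouse Gene 1.0 ST array. The deposited values are log2 signals per transcript cluster, which the authors made with Affymetrix Expression Console (version, background correction and summarisation not given in the sources used here). They ran from 2.35 to 14.64 in the controls and were used as deposited. Only the 4 control arrays were read, grouped by the sample labels, and mouse numbers 1 to 4 follow accession order and pair nothing. By the study's methods the controls came from several litters that also gave knockouts, without saying which mouse came from which. The spread between mice may hold technical parts.

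Of 35557 clusters, 21789 carried 1 gene symbol in the platform annotation, 1621 several and 12147 none, and only the first were used. By Entrez identifier 21698 were matched to RefSeq (GRCm38.p6), which gave biotypes and gene order. A gene with several clusters (999 genes) was given its brightest. Levels are means ± SD over 4 mice. The number of arrays limits their precision, and no test between groups was run, because the controls form a single group. Dixon's gap rule was used only to flag single mice in the closing observations. A cluster was counted as variable where its range over 4 mice was at least 1. The off-tissue level is the 95th percentile of the means of 44 genes of tissues not dissected. Members and gene lists were chosen with earlier results of these data known. Class I ORs had been planned by symbol number. That range held genes outside the cluster, so gene order on chromosome 7 was used instead.

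Named genes were the markers, Lhx2, the 30 brightest genes, the 12 brightest and 4 dimmest ORs, all TAARs, the 5 brightest vomeronasal receptors, the 4 brightest, the dimmest and the widest-ranging gene of each list, the 25 genes and 10 ORs with the widest range, and the sex-linked genes. Adcy3, Ano2, Cnga4, Cngb1, Gng13, Ncam2, Aqp5, Bhlha15, Lcn4, Obp1a, Bpifb5, Scgb3a1, Lhx3, Tbx19, the miRNAs, Snora73a, Snora73b and Uqcr11 fall outside this rule and were chosen after their values were seen. Alternatives were quantile normalisation, median centring, leaving out each mouse, medians over mice, other cluster choices and other thresholds. Python 3.11.15, numpy 2.4.6, pandas 2.3.3 and matplotlib 3.10.9 were used, and the calls were checked on simulated data.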

Additional observations from a re-analysis of the deposited data

Results flagged for a closer look

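A mouse stood clear of the other 3, by a gap that takes up most of the range of the 4 mice, in 3 of 43 group means and in 17 of 251 named genes (6.77%). For values that were not picked, Dixon's gap rule used here flags about 1 in 20 by chance. That rate does not hold for these items. The named genes were partly picked for wide ranges, and the pituitary list was written after Gh and Prl were seen. Most of these single genes call for little weight. Of the 17 genes, 8 had a range of at least 1.

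Control 1 stood apart in the mean of the pituitary hormone list (9.27, high), and in Gh (12.66), Fshb (7.67) and Muc5ac (10.02), all high. It was also high in the clock gene Ciart (7.71) and low in Txn1 (13.72) and Rdh1 (7.12), where the ranges were narrow. Control 2 stood apart in the mean of the respiratory chain list (11.37, high), in Rpph1 (13.62, high) and in Cnga2 (13.13, high, in a range of 0.02), and was low in BC018473 (9.08). Control 3 was low in the mean of the microvillar and tuft-like list (8.36), in Lcn11 (12.83) and in the liver gene F9 (3.49). Control 4 was low in the Y-linked genes Eif2s3y (4.70), Uty (5.01) and Kdm5d (6.28), and high in Tnni2 (8.02), Matn1 (5.91) and Ms4a4b (4.14). The causes of these gaps were not tested.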

How the results depend on the processing

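Of 179 recomputed values over 21 results, 160 moved by less than the spread between mice, or by less than 1.5 times for counts. The other 19 moved further. Shares over all genes were not recomputed here, and the order of ORs and all genes depended on the reference level, as given above. The count of ORs above the reference level was 478, but 958 against the 95th percentile of vomeronasal receptors, and 396 to 656 as single mice were left out. Clusters with a 2-fold range fell from 165 to 69 when only clusters above the off-tissue level were kept, OR clusters from 37 to 11 and class I clusters from 12 to 7. Leaving out single mice gave 74 to 128 clusters (74 without control 3), 20 to 28 OR clusters (20 without control 1, 23 without control 3) and 2 to 11 class I clusters (2 without control 1), since fewer mice can only narrow a range. Means over members in place of medians were 11.42 for gland genes, 8.18 for TAARs, 8.13 for all ORs, 8.42 for class I ORs, 12.37 for mature OSN genes and 11.55 for sustentacular genes. Among alternatives chosen after seeing the data, class I ORs by symbol number (129 genes) had a median of 8.62, with 90 lowest in control 3. That count was 94 of 116 after quantile normalisation and 100 after centring, and gland genes lowest in control 3 were 16 and 20. No paired analysis was possible because a single group was described and mouse numbers pair nothing. The order of signals between genes, and any level near the floor of the table, is limited by probe response and background, which were not measured here.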
